A study of Mus musculus with 52 samples.

Results

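RNA polymerase II (Pol II) was mapped by chromatin immunoprecipitation with sequencing (ChIP-seq) in resting mouse neurons that are labelled 6 h or 1 h in vehicle. The 4 libraries concerned were chosen by these labels, 2 for vehicle 6 h and 2 for vehicle 1 h, out of 52 samples in the series and 31 Pol II libraries. All came from primary neuron cultures of CD1 mice, an outbred strain, in dimethyl sulfoxide (DMSO), the vehicle of the study, with no stimulus and no named transgene or deletion. Set beside them are 4 unstimulated Pol II libraries in U0126 (2 labelled 6 h and 2 labelled 1 h), a drug that blocks MEK1/2, the kinases upstream of ERK. Vehicle neurons after 10 min and 30 min of activity (2 Pol II libraries each) and 2 libraries of acetylated histone H3 (H3K27ac) from unstimulated vehicle neurons were also used. The labels give neither the brain region nor the age of the cultures, and do not say from when the 6 h and the 1 h are counted or whether spontaneous firing was blocked.

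Pol II is loaded at a transcription start site (TSS), and at many genes it pauses shortly downstream until elongation factors release it, so its density at a TSS measures polymerase present and not RNA made. Primary neuron cultures hold excitatory and inhibitory neurons and, to a varying degree, glial cells. Immediate-early genes, which encode transcription factors such as Fos and synaptic effectors such as Arc, respond to firing without new protein synthesis, and many of them are known for Pol II that is already in place at rest.

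Density is the authors' normalized Pol II signal over a window of 600 bp, so genes can be compared per equal length, and 24194 gene symbols were measured. In the 4 resting vehicle libraries the median over the 731 TSSs that the authors marked as controls and used for normalization was between 0.998 and 1.01, so a density of 1 is about that of a control TSS. The median over all genes was 0.320, and the summed density of a library was between 15810 and 17150. Windows at 0 made up between 0.795% and 3.01% of a library. Over the 12097 genes in the upper 50 percent by mean density, the 2 libraries of 6 h correlated with r = 0.750 and the 2 of 1 h with r = 0.811. Genes within a library are not independent replicates. Separate cultures are not stated for the libraries of a group, so the p-values below rest on a spread between samples that may be technical.

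Pol II was spread unevenly over the resting genome. The gene at percentile 10 had a mean density of 0.117 over the 4 libraries, the gene at percentile 90 had 1.46 and the gene at percentile 99 had 2.76. The 242 genes that rank highest in a library held 6.31% and 6.61% of all signal at 6 h, against 5.79% and 6.13% at 1 h. The 2419 highest held 34.7% and 35.4% at 6 h, against 32.5% and 32.9% at 1 h.

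The promoter with the most Pol II was that of Polr2a, the gene of the largest Pol II subunit itself (chromosome 11, 69571835 to 69572435, mm9). Its density was 7.96 and 8.41 in the 6 h libraries, against 8.66 and 7.48 in the 1 h libraries. The 2 times overlapped, and the mean of 8.13 ± 0.519 (SD, n = 4) was rank 1 of all genes. Rank 2 was Rnu11 and rank 4 Rnu12, the RNAs of the minor spliceosome, named after their values were seen. Rnu11 had 7.77 and 8.53 at 6 h, against 7.28 and 6.99 at 1 h. Rnu12, whose window overlaps Poldip3, had 8.25 and 7.47 at 6 h, against 7.33 and 6.97 at 1 h, and at both genes the 6 h values were above the 1 h values. Replication-dependent histone genes took many of the next places. Hist1h4n, a histone H4 gene, had 6.12 and 8.19 at 6 h, against 7.67 and 8.18 at 1 h. Hist2h2aa1, a histone H2A gene, had 6.65 and 6.96 at 6 h, against 6.96 and 6.80 at 1 h, but its window overlaps that of its copy Hist2h2aa2, and reads could not be assigned to one of them from these data. Among protein-coding genes of other kinds, Srsf7, a splicing regulator, had 5.73 and 6.28 at 6 h, against 6.08 and 6.52 at 1 h. Tuba1a, the alpha-tubulin of growing axons, had 6.16 and 5.97 at 6 h, against 5.59 and 6.08 at 1 h. Malat1, an abundant nuclear non-coding RNA, had 5.90 and 6.19 at 6 h, against 7.62 and 5.44 at 1 h. From Hist1h4n to Malat1 the times overlapped at each gene.

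The promoters of Polr2a and Hist1h4n are shown because they hold the most Pol II at rest among protein-coding genes. They are the 250 bases before the annotated start in RefSeq (build GRCm38.p6, another build than the mm9 of the deposited windows, so the start may not be that of the window), 5′ to 3′ on the gene's strand. Capitals mark TATA boxes (TATAAA, given strand), CCAAT boxes (CCAAT), GC boxes (GGGCGG), the core of the cyclic AMP response element (CRE core, TGACG) and CArG boxes of the serum response element, the last 4 on both strands. Polr2a lies at chr11:69758634-69758883 (minus strand) and Hist1h4n, which RefSeq lists as H4c18, at chr13:21832198-21832447 (minus strand).
Polr2a: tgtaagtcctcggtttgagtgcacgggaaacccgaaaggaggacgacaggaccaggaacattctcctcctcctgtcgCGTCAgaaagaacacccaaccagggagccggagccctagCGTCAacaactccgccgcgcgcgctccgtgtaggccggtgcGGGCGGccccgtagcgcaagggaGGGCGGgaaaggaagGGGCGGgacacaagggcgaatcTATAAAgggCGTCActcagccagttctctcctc
Hist1h4n: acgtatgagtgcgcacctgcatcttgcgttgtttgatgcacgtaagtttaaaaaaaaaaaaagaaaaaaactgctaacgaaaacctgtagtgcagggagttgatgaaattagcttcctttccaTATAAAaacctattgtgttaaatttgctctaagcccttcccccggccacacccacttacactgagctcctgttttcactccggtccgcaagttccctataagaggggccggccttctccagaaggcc
The Polr2a promoter holds 1 TATA box that begins at -33, 3 GC boxes and 3 CRE cores, and 62.8% of its bases are G or C. Hist1h4n has a single exact TATAAA, at -127, none of the other motifs, and 45.2% G or C. Variants were not searched, and the TATA-like stretch ctataag near the end of Hist1h4n is unmarked. Of all 32851 promoters in the RefSeq table, 7.59% hold this TATA box, 33.9% a CCAAT box, 32.7% a GC box, 17.8% a CRE core and 1.47% a CArG box in the same 250 bases. A match is a description of the letters and not a bound site.

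By gene family, the highest promoters were those of histones and of genes that every cell uses. The 68 replication-dependent histone genes, which supply new chromatin in dividing cells, had a median of 3.41 and 4.15 at 6 h, against 3.37 and 3.88 at 1 h, and 53 of them were among the highest 1 percent of genes. A share of 44.1% of their windows overlaps the window of another gene, against 13.0% over all genes, since these genes lie in divergent pairs and clusters. Their mean density over the 4 libraries ran from 7.54 at Hist1h4n to 0.129 at Hist1h2aa and 0.253 at Hist1h1t, both of which are known from testis. The 75 cytosolic ribosomal protein genes had a median of 1.79 and 2.10 at 6 h, against 1.85 and 1.87 at 1 h, led by Rpl3 (4.15) and Rpl7a (3.18), with Rps25 lowest at 1.08. Of these, 59 of 75 were among the highest 10 percent of genes. For the 31 Srsf and Hnrnp splicing regulators the median was 1.59 and 1.95 at 6 h, against 1.67 and 1.93 at 1 h. In each of these 3 families the 6 h and 1 h medians overlapped.

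Translation, folding and energy genes formed the next level. The median over the 4 libraries was 1.56 for the chaperonin subunits (Cct), 1.31 for tubulins, 1.24 for translation factors (Eif and Eef), 1.21 for respiratory chain subunits, 1.199 for mitochondrial ribosomal proteins and 1.13 for proteasome subunits. Within these families the members were far apart. Tuba1a, Tubb2b (4.56) and Tubb3 (4.14), the tubulins of neurons, stood against Tubal3 at 0.0855. The translation factor Eef1a1 had 4.13, and Eif4e1b, which is known from oocytes, 0.252. Psmd5, a proteasome assembly chaperone, had 3.16, against 0.146 at the thymus subunit Psmb11 and 0.145 at the testis subunit Psma8. Zinc finger (Zfp) genes, 372 of them, had a median of 0.878, with Zfp119a highest (3.54) and Zfp72 lowest (0.0267).

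Membrane and receptor genes were lower, including those of neurons. The median was 0.333 for 17 GABA-A receptor subunits, 0.320 for 17 synaptotagmins, 0.281 for 28 glutamate receptor subunits, 0.270 for 98 potassium channel genes and 0.265 for 40 sodium and calcium channel genes, all near the 0.320 of all genes. Single members were well above. Cacna1b, the pore of N-type calcium channels at presynaptic terminals, had 2.82 and 1.91 at 6 h, against 2.10 and 2.07 at 1 h. Syt11, a vesicle protein of the synaptotagmin family, had 1.497 and 2.76 at 6 h, against 2.87 and 2.37 at 1 h. Gria2, the AMPA receptor subunit that limits calcium entry, had 1.22 and 1.38 at 6 h, against 1.59 and 1.16 at 1 h, while Grm4, a metabotropic receptor, was at 0.0898 on average. At these 3 named high members the 6 h and 1 h values overlapped. The 58 clustered protocadherins, adhesion proteins of which each neuron picks a few, had a median of 0.219, and Pcdhgc3 was highest at 0.581.

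**Figure D1:**
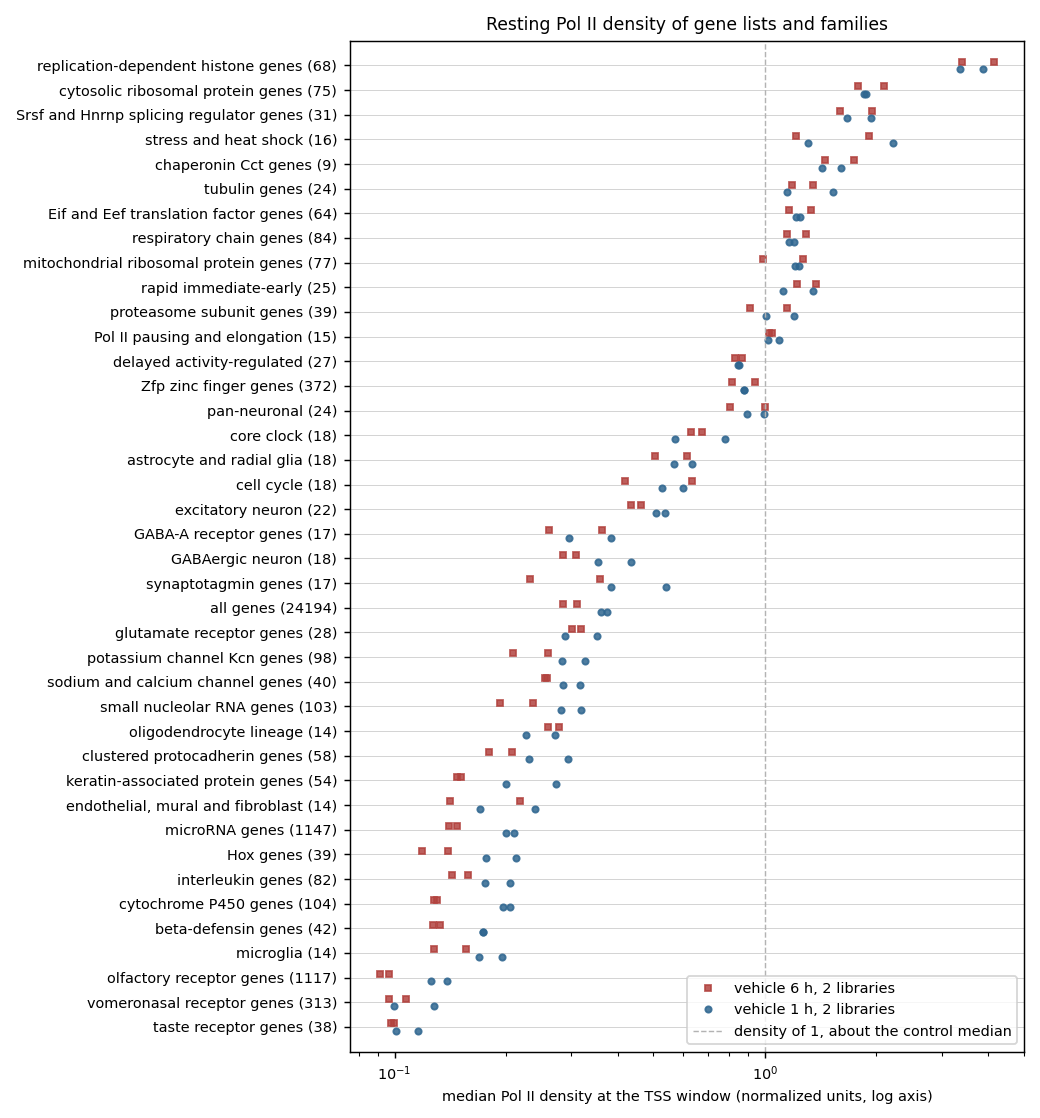
Median Pol II density (horizontal log axis, normalized units) of the 39 gene lists and families and of all genes, with the number of genes in brackets. Each row has 2 squares for the 6 h and 2 circles for the 1 h vehicle libraries. Histone genes lie highest (median 3.68) and taste receptors lowest (0.106), and below the level of all genes the squares lie mostly left of the circles.

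The emptiest promoters belonged to genes of other tissues. The median was 0.174 for 39 Hox genes, the patterning factors of the trunk, and each of the 39 was below the median gene. It was 0.171 for interleukins and their receptors, 0.167 for cytochrome P450 genes, 0.160 for beta-defensins, 0.120 for 1117 olfactory receptors, 0.109 for 313 vomeronasal receptors and 0.106 for 38 taste receptors. Of the olfactory receptors 1110 of 1117 were below the median gene. Their median per library was 0.0916 and 0.0965 at 6 h, against 0.139 and 0.125 at 1 h, with no overlap between the times. Some of these families had exceptions. Cyp51, an enzyme of cholesterol synthesis that most cells use, had 1.81 and 1.52 at 6 h, against 2.23 and 2.10 at 1 h, with no overlap. Il6st, the shared receptor subunit of interleukin 6 cytokines, averaged 1.01. Vmn2r29 had 1.55, and the authors' counting of reads that match several copies of such families is not given in the sources used here.

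A silent family and a neuronal gene are shown for contrast. Elavl3, a neuronal RNA-binding protein gene, is the highest of the pan-neuronal markers, and Olfr142 is the olfactory receptor on the median of its family (0.120). They are credited, oriented and marked as above, at chr9:22052024-22052273 (minus strand) and chr2:90252987-90253236 (minus strand).
Elavl3: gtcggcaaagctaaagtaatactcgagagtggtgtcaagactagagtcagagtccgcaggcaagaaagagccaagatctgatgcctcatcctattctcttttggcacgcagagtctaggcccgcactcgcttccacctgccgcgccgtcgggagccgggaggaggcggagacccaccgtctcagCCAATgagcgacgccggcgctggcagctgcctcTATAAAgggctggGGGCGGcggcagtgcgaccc
Olfr142: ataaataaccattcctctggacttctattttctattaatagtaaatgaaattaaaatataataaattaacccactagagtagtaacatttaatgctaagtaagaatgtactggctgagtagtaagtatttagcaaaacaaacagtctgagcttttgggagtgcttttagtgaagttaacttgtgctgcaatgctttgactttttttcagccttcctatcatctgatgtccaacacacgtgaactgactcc
The Elavl3 promoter has a TATA box at -33, a CCAAT box and a GC box, with 61.6% G or C. That of Olfr142 holds none of the motifs and 33.2% G or C. A single promoter could be matched for 930 of the 1117 olfactory receptors (83.3%), and of these 0.645% had a GC box and 22.5% the TATA box, with a median of 33.6% G or C. For histone genes 59 of 68 (86.8%) could be matched: 81.4% had a CCAAT box, 40.7% the TATA box and 33.9% a GC box, with 44.8% G or C. The 49 matched keratin-associated protein genes (90.7% of the family, median density 0.187) had the TATA box in 79.6% and a GC box in 0.0%. Over all genes 62.8% had a single promoter in the table, so a check of sequence against density over the whole genome is void, since fewer than 80% have a value.

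Pan-neuronal markers (median 0.875) carried more Pol II than the lists of glial and vascular markers. The excitatory (0.499) and GABAergic (0.333) lists were both below that of astrocytes and radial glia (0.525). All 24 pan-neuronal markers were above the median gene, with a median of 1.00 and 0.806 at 6 h, against 0.895 and 0.995 at 1 h. Elavl3 had 3.69 and 4.04 at 6 h, against 4.50 and 4.51 at 1 h. Tubb3, the beta-tubulin used to identify neurons, had 3.95 and 4.58 at 6 h, against 3.93 and 4.12 at 1 h. Uchl1, an abundant neuronal hydrolase, had 2.77 and 3.87 at 6 h, against 2.18 and 4.00 at 1 h, in a window that overlaps its antisense partner Uchl1os. Both 6 h values of Elavl3 were below both 1 h values, and at the other two genes the times overlapped. The lowest of the list was Rbfox3, the gene of the nuclear antigen NeuN of mature neurons, at 0.225 and 0.482 at 6 h, against 0.379 and 0.316 at 1 h. Thy1, a surface protein of mature neurons, averaged 0.422.

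Excitatory and inhibitory lists both had members above the median gene. The 22 excitatory markers had a median of 0.436 and 0.464 at 6 h, against 0.509 and 0.537 at 1 h, and 19 of them were above the median gene. After Gria2 came Neurod6, a transcription factor of cortical excitatory neurons, with 0.539 and 1.63 at 6 h, against 0.697 and 1.03 at 1 h. Grin1, the obligatory NMDA receptor subunit, had 0.907 and 1.04 at 6 h, against 1.17 and 0.742 at 1 h. Bcl11b, a factor of deep-layer neurons, was lowest with a mean of 0.202. The 18 GABAergic markers had a median of 0.309 and 0.285 at 6 h, against 0.436 and 0.353 at 1 h, and 9 were above the median gene. Highest were the homeobox factors of inhibitory neurons, Dlx1 with 1.40 and 0.935 at 6 h, against 1.79 and 0.873 at 1 h, and Dlx2 with 1.07 and 1.10 at 6 h, against 1.21 and 0.971 at 1 h. Gad1, which makes GABA, had 1.02 and 0.544 at 6 h, against 1.07 and 0.406 at 1 h. At each of these genes the times overlapped. Vip (0.121), Pvalb (0.168) and Lhx6 (0.196), of interneuron classes, were below the median gene. In both lists the medians of 6 h lay below those of 1 h, as did the median of all genes.

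Some glial genes were among the most occupied. Glul, the glutamine synthetase of astrocytes, had 4.03 and 3.94 at 6 h, against 3.21 and 3.20 at 1 h, in a window that overlaps the microRNA gene Mir8114. Sox9, a factor of astrocytes and radial glia, had 2.03 and 2.53 at 6 h, against 2.11 and 2.25 at 1 h, and Hes5, a Notch target of progenitors, had 2.41 and 1.57 at 6 h, against 1.83 and 1.80 at 1 h. At Glul both 6 h values were above both 1 h values, while Sox9 and Hes5 overlapped. The whole list of 18 astrocyte and radial glia markers had a median of 0.506 and 0.616 at 6 h, against 0.633 and 0.569 at 1 h, and 14 of 18 were above the median gene. Other astrocyte genes lay on both sides of the median gene of 0.320. Sparcl1 averaged 0.473, the aldolase Aldoc 0.431 and Aldh1l1 0.332, while the filament gene Gfap averaged 0.243, the water channel Aqp4 0.217 and S100b 0.184. In the oligodendrocyte lineage Olig2 had 0.761 and 1.56 at 6 h, against 0.967 and 1.59 at 1 h, and Olig1 had 1.48 and 0.773 at 6 h, against 1.45 and 1.14 at 1 h. Both are lineage factors, and the myelin genes Mag (0.0998) and Mobp (0.0796) were near the lowest of the genome. The list of 14 had a median of 0.277 and 0.260 at 6 h, against 0.226 and 0.271 at 1 h.

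Microglial and vascular markers were close to the level of silent families. The 14 microglial markers had a median of 0.156 and 0.128 at 6 h, against 0.169 and 0.194 at 1 h, and 13 of 14 were below the median gene. The exception was Cd68, a lysosomal protein, with 0.207 and 0.788 at 6 h, against 0.889 and 0.707 at 1 h. C1qc, a complement gene of microglia, was at 0 in 1 library of each time and averaged 0.0638. The 14 endothelial, mural and fibroblast markers had a median of 0.218 and 0.141 at 6 h, against 0.240 and 0.170 at 1 h, with Pdgfrb of pericytes highest (0.408) and the collagen Col3a1 lowest (0.0834). Again 13 of 14 were below the median gene. Cell cycle genes lay between, with a median of 0.509. Pcna, the clamp of DNA replication, had 1.94 and 2.48 at 6 h, against 1.66 and 2.07 at 1 h, and the proliferation marker Mki67 averaged 0.227. These are bulk cultures, so fewer cells of a type and less Pol II per cell cannot be told apart.

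**Figure D2:**
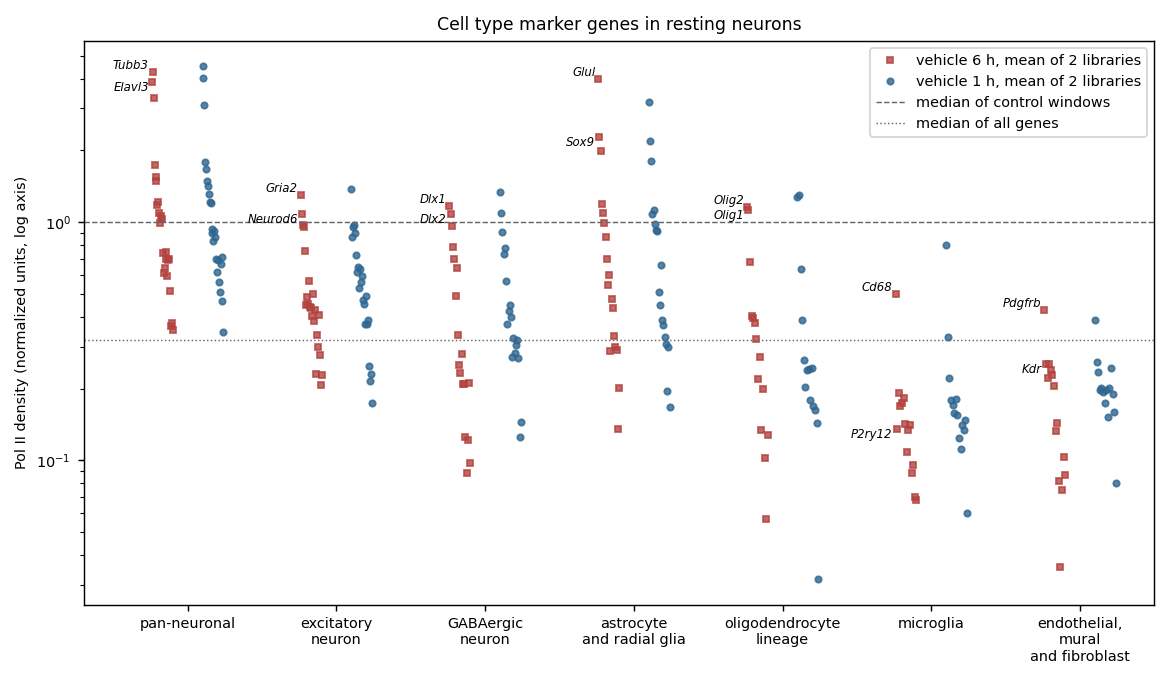
Pol II density (vertical log axis, normalized units) of each cell type marker, as the mean of 2 libraries at 6 h (squares, left in each column) and at 1 h (circles, right). The 2 highest markers of each list are named. The dashed line is the median of the control windows and the dotted line the median of all genes; 13 of 14 microglial and 13 of 14 vascular markers lie below the dotted line in their mean over all 4 libraries.

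Rapid immediate-early genes already held much Pol II at rest. The list differs from the authors' classes, which mark Atf3 and Fbxo33 as delayed and some members, such as Klf2, as neither. Ppp1r15a, of the delayed list below, is marked rapid by the authors. The 25 members had a median of 1.22 and 1.38 at 6 h, against 1.122 and 1.35 at 1 h, above the 0.320 of all genes, and 11 of 25 were among the highest 10 percent of genes. Gadd45g, a DNA demethylation and stress factor, had 3.10 and 4.36 at 6 h, against 2.46 and 4.83 at 1 h. Btg2, an inhibitor of proliferation, had 2.63 and 3.62 at 6 h, against 3.26 and 3.94 at 1 h. Ier5 had 3.67 and 3.31 at 6 h, against 1.67 and 4.41 at 1 h. At all 3 the times overlapped, and 1 h number 1 was the lowest library at Gadd45g and Ier5. The AP-1 factor Junb had 2.84 and 3.07 at 6 h, against 2.48 and 4.09 at 1 h, and the phosphatase gene Dusp1 had 1.84 and 3.08 at 6 h, against 2.13 and 3.05 at 1 h. Fos had 2.21 and 2.81 at 6 h, against 2.00 and 2.30 at 1 h, percentile 98.2 of all genes.

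Factors known as neuronal activity reporters spanned the whole range. Egr1 had 1.84 and 1.99 at 6 h, against 1.57 and 1.61 at 1 h, with both 6 h values above both 1 h values. Npas4, a factor that shapes inhibitory synapses and is induced by calcium entry, had 1.53 and 1.45 at 6 h, against 1.55 and 1.71 at 1 h, with both 6 h values below both 1 h values. Arc, which removes AMPA receptors from synapses, had 1.25 and 1.00 at 6 h, against 1.19 and 1.48 at 1 h, and Nr4a1, an orphan nuclear receptor, had 0.799 and 1.38 at 6 h, against 0.775 and 1.19 at 1 h. Fosb averaged 0.818, Maff 0.608, Egr2 0.578 and Klf4 0.497. Egr3 and Egr4, of the same zinc finger family as Egr1, were the lowest. Egr3 had 0.399 and 0.133 at 6 h, against 0.355 and 0.154 at 1 h, and Egr4 had 0.245 and 0.184 at 6 h, against 0.145 and 0.363 at 1 h. These 2 were the rapid genes below the median gene, and 16 of 25 were above the median control TSS. The remaining members, Ier2, Klf6, Arf4, Atf3, Fbxo33, Cyr61, Zfp36, Klf2 and Amigo3, had means between 2.97 (Ier2) and 0.798 (Amigo3).

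The promoters of Fos, which has a high resting density, and of Egr4, the lowest of the list, are printed as above, from chr12:85473640-85473889 (plus strand) and chr6:85513590-85513839 (minus strand).
Fos: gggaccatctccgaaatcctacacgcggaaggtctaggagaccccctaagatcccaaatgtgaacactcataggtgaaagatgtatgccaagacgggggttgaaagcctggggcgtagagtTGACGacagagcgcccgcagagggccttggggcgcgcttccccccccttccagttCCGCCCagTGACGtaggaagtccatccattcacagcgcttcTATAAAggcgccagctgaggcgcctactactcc
Egr4: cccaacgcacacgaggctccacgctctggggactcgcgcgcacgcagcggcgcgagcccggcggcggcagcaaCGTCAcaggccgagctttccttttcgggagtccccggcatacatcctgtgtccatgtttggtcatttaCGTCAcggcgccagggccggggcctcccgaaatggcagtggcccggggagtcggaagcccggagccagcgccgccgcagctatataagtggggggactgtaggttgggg
Both hold 2 CRE cores, at -129 and -66 in Fos and at -177 and -109 in Egr4. Fos has a TATA box at -33 and a GC box at -74, and Egr4 has neither exact string in this window. Only TATAAA was searched, and Egr4 holds the unmarked TATA-like stretch tatataag near its end. The search therefore does not show that Egr4 lacks a TATA box. G and C made up 58.4% of Fos and 68.0% of Egr4. The complete CRE stands in 1.55% of all promoters in the table and in neither of these windows. A single promoter could be matched for 76.0% of the list, so shares over it are void for the reason given above.

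Set against activity, resting 1 h vehicle neurons held a median of 41.0% of the density that the rapid genes had after 30 min of activity. The value rests on the activity libraries: it was 61.1% without replicate 1 of 30 min, in which 11.5% of windows are at 0, and 32.7% without replicate 2, in which 1.64% are. With 6 h neurons in place of 1 h it was 40.6%, and against 10 min of activity 57.2%. Nr4a1 and Maff had the lowest shares, 18.9% and 18.7%. At Fos the share was 23.0%, with 2.15 ± 0.214 at rest of 1 h, 7.31 ± 0.299 at 10 min and 9.38 ± 2.90 at 30 min (SD, n = 2 each). At Npas4 it was 32.5% and at Arc 66.0%. Gadd45g, with the most Pol II at rest, held 63.6%, while Egr4, with the least, held 31.4%, and Zfp36, an mRNA decay factor, held 94.5%. No background was subtracted. The 1 h values of Egr4, 0.145 and 0.363, stand beside olfactory receptor medians of 0.139 and 0.125, so its share may be partly background. In all, 11 of 25 were above 50 percent. Over the control TSSs, to which the authors normalized, the median was 98.0%. The authors' marked rapid TSSs (19 windows) had a median of 1.31 and 1.38 at 6 h, against 1.19 and 1.48 at 1 h, and their delayed TSSs (116 windows) 0.459 and 0.471 at 6 h, against 0.483 and 0.529 at 1 h.

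**Figure D3:**
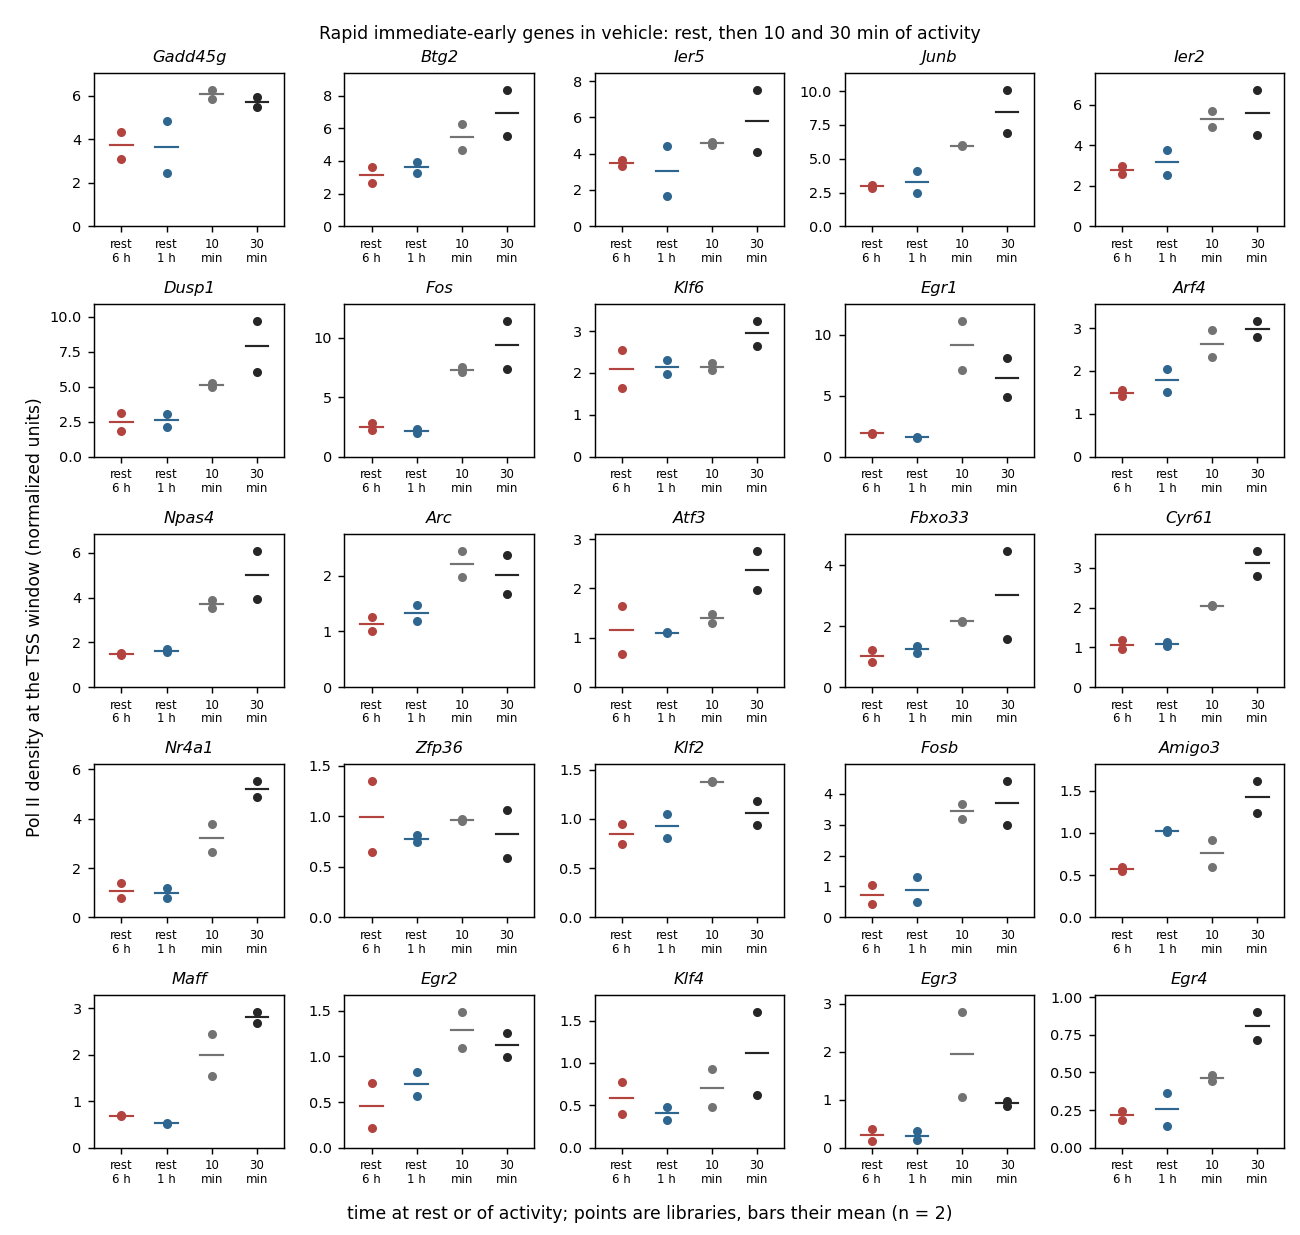
Pol II density (vertical linear axis from 0, normalized units, a scale per gene) of the 25 rapid immediate-early genes in vehicle, ordered by resting density. Points are single libraries and bars their means, for rest of 6 h, rest of 1 h, 10 min and 30 min of activity. Resting densities of 6 h and 1 h overlap at 21 of the 25 genes.

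The list of delayed activity-regulated genes was lower as a whole, with exceptions. It is not the authors' delayed class, and members such as Plk2, Gadd45b, Nr4a3 and Bdnf are marked neither rapid nor delayed by them. Some members were already higher at 10 min of activity, and others were not. Nr4a3 had 1.335 at rest of 1 h and 4.16 at 10 min, Homer1 0.769 and 2.70, and Inhba 0.262 and 0.1085 (means of 2 libraries). The 27 genes had a median of 0.832 and 0.865 at 6 h, against 0.844 and 0.853 at 1 h. Plk2, a kinase of synaptic scaling, had 3.95 and 4.13 at 6 h, against 2.97 and 4.18 at 1 h, and Gadd45b had 2.35 and 3.23 at 6 h, against 1.64 and 3.28 at 1 h. Rgs2, a G protein regulator, was even in all libraries, with 2.14 and 2.18 at 6 h, against 1.97 and 2.19 at 1 h. Bdnf, the neurotrophin gene, had 0.494 and 0.139 at 6 h, against 0.459 and 0.399 at 1 h in its highest window. Inhba, an activin subunit, and Csrnp1 were lowest, at 0.153 and 0.155. Resting 1 h neurons held a median of 54.0% of the 30 min density over this list, from 15.6% at Nr4a2 to 130% at Csrnp1. At Csrnp1 and Inhba (126.5%) the 30 min densities themselves were low, 0.184 and 0.207. Times later than 30 min were not used here, so 54.0% is not a share of the highest level these genes may reach.

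The 16 stress and heat shock genes had a median of 1.22 and 1.91 at 6 h, against 1.31 and 2.21 at 1 h, and number 2 was the higher library at both times. The chaperone Hspa8 had 3.45 and 3.70 at 6 h, against 3.15 and 4.29 at 1 h, and Hspa5, the chaperone of the endoplasmic reticulum, 2.35 and 4.58 at 6 h, against 2.84 and 3.81 at 1 h. Hspb1, a small heat shock protein, averaged 0.233. Among 18 clock genes the repressor Cry2 was highest, with 2.21 and 1.77 at 6 h, against 1.87 and 1.72 at 1 h, and Npas2 lowest (0.357). Of the Pol II pausing and elongation list 15 of 18 genes were matched. After Polr2a came Hexim1, an inhibitor of the elongation kinase P-TEFb, with 2.49 and 3.43 at 6 h, against 2.60 and 4.04 at 1 h, then Nelfa (1.62) and Nelfb (1.34) of the negative elongation factor.

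Genes near enhancers with more resting acetylation had somewhat higher Pol II. The authors' H3K27ac table holds 940 enhancer regions named for 259 nearest genes, of which 253 could be matched. Genes near such regions had a median Pol II density of 0.510, against 0.320 over all genes. It was 0.394 for the 84 genes with the least resting H3K27ac, 0.624 for the next 84 and 0.662 for the 85 with the most. Across these genes the rank correlation of the 2 readouts was 0.235, and that of the 2 acetylation replicates 0.752. Genes are not independent replicates, regions share a nearest gene, and the regions are those the authors selected.

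With time in vehicle, no promoter passed the test. limma called 0 of 12097 genes (0.0%) between 6 h and 1 h at a Benjamini-Hochberg adjusted p under 0.05, and the lowest adjusted p was 0.9997. An unadjusted p under 0.05 was found for 342 genes (2.83%), 163 of them higher at 6 h (1.35%) and 179 lower (1.48%), and on values as deposited, without centring of the libraries, 125 of 345 were higher. Without number 2 of 6 h, 828 genes had such a p, of which limma called 0. In the unstimulated U0126 libraries limma called 0 genes too, while 219 (1.81%) had an unadjusted p below 0.05, and the mean of both arms gave 0, with 308 (2.55%). The same fit called 172 genes (1.42%) between 30 min of activity and rest of 1 h. Absent calls do not show equal density. The 95% interval of the change lay within 1 log2 unit of no change for 8482 genes (70.1%), and extended by a median of 0.65 on either side of the estimate. With both arms averaged, 95.9% of genes had such an interval. Log2 fold changes here are of density plus a pseudocount of 0.148, which understates the change of genes with low density.

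The libraries of a time differed from each other as much as the times did. Over the tested genes the SD of the vehicle change between 6 h and 1 h was 0.30 on the log2 scale, and that of the difference between number 1 and number 2 over both times was 0.38. Number 2 of 6 h correlated with number 2 of 1 h at r = 0.868, higher than the 0.750 of the 2 libraries of 6 h. For number 1 the value was 0.787, lower than the 0.811 of the 2 libraries of 1 h. Against number 1, libraries with number 2 were higher at 58 of 65 tested histone genes, with a median log2 difference of 0.25, and at 18 of 25 rapid genes (0.26). Over all tested genes number 2 was higher at 6042 of 12097 (median -0.0003), and among the tested GABAergic markers at 2 of 12 (-0.25). Densities of 6 h and 1 h did not overlap at 27.3% of the tested genes (1380 with both 6 h values above and 1919 with both below, 11.4% and 15.9%). The change in vehicle and that in U0126 had r = 0.0642 across genes, and these 2 comparisons share no library.

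The genes with the lowest p in vehicle are given by their values, since none was called. Rasgrf1, an exchange factor that activates Ras (chromosome 9, 89804312 to 89804912, mm9), had 0.646 and 0.541 at 6 h, against 0.0892 and 0.0789 at 1 h. The log2 fold change was 1.70 (SE 0.47, unadjusted limma p 0.00102, adjusted p 0.9997). Both 6 h values were above both 1 h values, but in U0126 the gene had 0.389 and 0.257 at 6 h, against 0.427 and 0.266 at 1 h, a log2 fold change of -0.04. Zfp322a, a zinc finger gene, had 2.21 and 2.36 at 6 h, against 0.921 and 1.66 at 1 h (0.83), and Aasdh 2.82 and 3.09 at 6 h, against 1.65 and 2.06 at 1 h (0.66). Rsl1 (1.06) and Depdc1a (0.95) followed. At each of these genes the U0126 change was between -0.04 and 0.18.

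On the lower side, Bbs12, a chaperonin-like protein of cilia, had 0.532 and 1.08 at 6 h, against 1.76 and 1.54 at 1 h, a log2 fold change of -0.94 (SE 0.29, unadjusted limma p 0.0026, adjusted p 0.9997), in a window that overlaps Cetn4. Zpr1, a zinc finger protein, had 0.955 and 0.652 at 6 h, against 1.75 and 1.32 at 1 h (-0.80). Dgkh, a diacylglycerol kinase, was at -1.24, Hdgf at -0.91 and Cnih1, a cargo receptor of the secretory pathway, at -0.91. In U0126 Bbs12, Dgkh and Hdgf had small positive values (0.07, 0.16 and 0.11), and Zpr1 (-0.34) and Cnih1 (-0.43) negative ones.

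No list or family had a called gene, and their medians of the change are given by value. The median log2 fold change between 6 h and 1 h was -0.06 for the 25 rapid genes, of which 9 had a positive and 16 a negative value and 1 an unadjusted p under 0.05, beside a median of -0.01 over all tested genes. That 1 was Amigo3, an adhesion protein gene, with 0.602 and 0.550 at 6 h, against 1.01 and 1.03 at 1 h (-0.67, unadjusted limma p 0.0461, adjusted p 0.9997). Fos had a log2 fold change of 0.23 with a 95% interval from -0.24 to 0.70, Egr1 of 0.27 (-0.26 to 0.80) and Arc of -0.19 (-0.74 to 0.35). At 2 rapid genes both 6 h values were above both 1 h values (Egr1 and Maff), and at 2 both were below (Npas4 and Amigo3), together 4 of 25 beside 27.3% of all tested genes. The 24 delayed genes tested had a median of 0.10, the 24 pan-neuronal markers -0.08, the 16 tested excitatory markers -0.12, the 12 tested GABAergic markers -0.15 and the 13 tested astrocyte and radial glia markers 0.12. The median was 0.05 for 65 histone genes, 0.06 for 75 ribosomal protein genes, -0.12 for 15 stress genes and -0.02 for 18 clock genes. Families with few tested members had medians farther from 0. The median was -0.34 for 8 clustered protocadherins (-0.38 in U0126), 0.22 for 8 GABA-A receptor subunits (-0.06 in U0126), and -0.21 for 16 cytochrome P450 genes (0.08 in U0126).

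Within these lists some genes were farther from 0. In the pan-neuronal list the neurofilament gene Nefl had 0.136 and 0.6003 at 6 h, against 0.474 and 0.955 at 1 h (-0.82), and in the glial list Sparcl1, a secreted protein of astrocytes, had 0.418 and 0.155 at 6 h, against 0.653 and 0.667 at 1 h (-0.94). The stress kinase-like gene Trib3 had 0.298 and 0.221 at 6 h, against 0.633 and 0.467 at 1 h (-0.75), and Ddit3, a factor of the unfolded protein response, had 1.44 and 2.12 at 6 h, against 2.32 and 2.81 at 1 h (-0.49). Rorb, a nuclear receptor of the clock, had 0.953 and 0.968 at 6 h, against 0.561 and 0.652 at 1 h (0.58). None of them passed the test, and in U0126 their changes were 0.25 at Nefl, -0.01 at Sparcl1, -0.18 at Trib3, 0.13 at Ddit3 and 0.16 at Rorb.

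**Figure D4:**
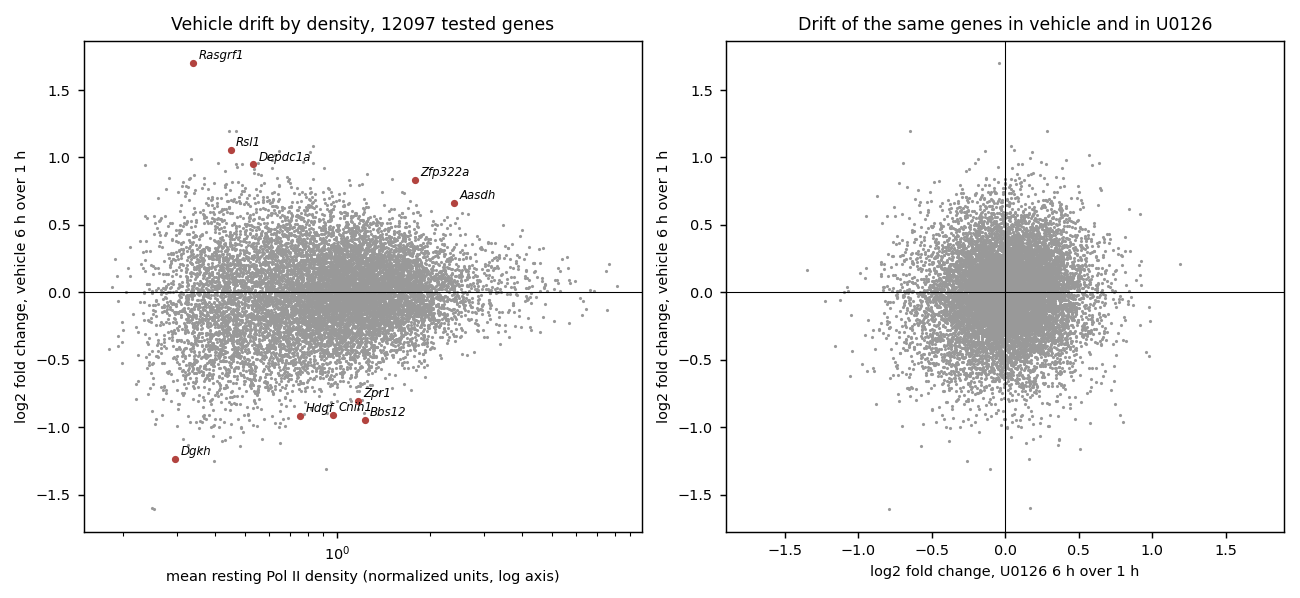
Left, log2 fold change of vehicle 6 h over 1 h (vertical axis) against mean resting Pol II density (log axis) for the 12097 tested genes, with the 10 genes of lowest p named. Right, the same fold change against that in U0126. The cloud narrows at high density, 27 genes lie beyond 1 log2 unit in vehicle, and the 2 changes are nearly unrelated across genes (r = 0.0642).

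At promoters with little Pol II the vehicle medians were lower at 6 h than at 1 h. With genes sorted into 10 deciles by their mean resting density, the median of decile 1, the lowest, was 0.0742 and 0.0808 at 6 h, against 0.117 and 0.0920 at 1 h. In decile 3 it was 0.132 and 0.130 at 6 h, against 0.188 and 0.190 at 1 h, and in decile 5 it was 0.209 and 0.210 at 6 h, against 0.279 and 0.273 at 1 h. In decile 10 it was 1.77 and 1.89 at 6 h, against 1.82 and 1.81 at 1 h. The times did not overlap in deciles 1, 3 and 5 and overlapped in decile 10. As a ratio of means, 6 h over 1 h was 0.740 in decile 1, 0.692 in decile 3, 0.887 in decile 6 and 1.00 in decile 10. The ratio of control TSSs to olfactory receptors, a measure of enriched over empty promoters, was 11.0 and 10.5 at 6 h, against 7.19 and 7.99 at 1 h. It was 16.0 and 11.4 in U0126 of 6 h, against 9.05 and 16.0 in U0126 of 1 h, so the U0126 libraries did not separate by time. Centred on all genes in place of the tested ones, the vehicle change of every gene would move by 0.19 log2 units, since the median of all genes differed by -0.21 between 6 h and 1 h and that of the tested genes by -0.03. Among the lists of low markers, the excitatory, GABAergic and microglial medians were lower at 6 h. In the oligodendrocyte list (0.277 and 0.260 at 6 h, against 0.226 and 0.271 at 1 h) the times overlapped. They also overlapped in the vascular list (0.218 and 0.141 at 6 h, against 0.240 and 0.170 at 1 h). Whether the level of empty promoters has a part in the values of low markers was not tested.

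**Figure D5:**
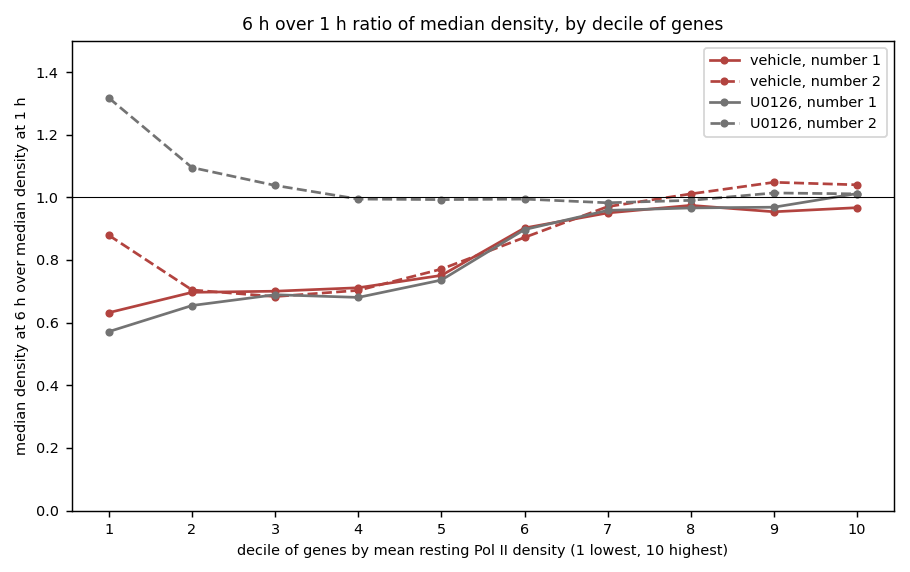
Median Pol II density at 6 h over that at 1 h (vertical axis, ratio) by decile of genes in mean resting density (horizontal axis, 1 lowest). Lines set libraries with the same number against each other, in vehicle and in U0126, although the number is not known to pair them. Both vehicle lines and U0126 number 1 lie below 1 in deciles 1 to 6 and near 1 above, while U0126 number 2 lies at 1.32 in decile 1 and between 0.983 and 1.10 in the others.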

How the data were processed

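Pol II and H3K27ac ChIP-seq had been processed by the authors with Bowtie2, SAMtools and bedtools on genome build mm9, per the submitters' processing notes; versions, and how reads that match several places were handled, are not stated in the sources used here. The labels' protocols give fixation in 1% formaldehyde, the Pol II antibody ab817, the H3K27ac antibody ab4729 and the NuGen Ultralow V2 library kit. Per the file headers, the deposited Pol II values are a normalized signal (density) per TSS window, for which the authors used control TSSs without activity regulation. The deposited H3K27ac signal is normalized on a scale not stated. Read depth is unknown, so no counting intervals are given.

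From the 27815 deposited windows, the window with the highest mean over the 31 Pol II libraries was kept for each of 24194 genes. Densities were put on a log2 scale with a pseudocount of 0.148, genes in the upper 50 percent by mean density (at least 0.301, 12097 genes) were tested, and the median of every library was set to 0. limma 3.58.1 in R 4.3.3 was fitted to all 31 libraries in 16 groups with a trended prior (15 residual and 18.7 prior degrees of freedom) and p-values were Benjamini-Hochberg adjusted over all tested genes. With 2 libraries against 2, an exact permutation test of a single gene cannot give a p below 0.333, so none was run.

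Genes and lists were chosen with earlier results of these data known. Named were the 12 genes with the highest resting density (small RNA and predicted genes skipped), all rapid immediate-early genes, up to 4 highest and 2 lowest members of each other list, the 5 genes with the lowest p in each direction of a comparison with fewer than 10 calls, and up to 3 members of each list with the largest change; a few genes that this rule names are not reported here. Alternatives were quantile and cyclic loess normalization, values as deposited, no filter, other pseudocounts, other windows, fewer libraries, a replicate block and leaving out each replicate. Replicate numbers, shared by the groups in the labels, were not taken to pair libraries.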

Additional observations from a re-analysis of the deposited data

Results flagged for a closer look

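A search covered the reported genes that were named for the highest resting density or for their change. At 4 of these both vehicle libraries of 6 h lay on one side of both vehicle libraries of 1 h. Both U0126 libraries of 6 h lay on the opposite side of both of 1 h at the same genes. Values are the log2 fold change of 6 h over 1 h in vehicle minus that in U0126, and limma's contrast of the 2 changes gave each an adjusted p of 0.9999, so none was called. Cd1d1, a lipid antigen-presenting protein, differed by -1.45 (unadjusted limma p 0.00482), with 0.304 and 0.448 at 6 h, against 0.667 and 0.507 at 1 h in vehicle, and with 0.636 and 0.997 at 6 h, against 0.484 and 0.231 at 1 h in U0126. Upf3a, of nonsense-mediated mRNA decay, differed by -0.96 (0.00604), with 1.39 and 1.69 at 6 h, against 1.79 and 2.10 at 1 h in vehicle, and with 1.85 and 2.35 at 6 h, against 1.21 and 1.35 at 1 h in U0126. The kinase gene Dgkh differed by -1.40 (0.0190) and the clock repressor Bhlhe41 by -0.98 (0.0497). The genes searched were partly named for their change in one arm, and genes named on other grounds were not searched. Of the latter, Npas4 and Glul also lay on opposite sides in vehicle, with the values given above, and in U0126. In U0126 Npas4 had 1.88 and 1.54 at 6 h, against 1.294 and 1.285 at 1 h. Glul had 3.14 and 2.90 at 6 h, against 3.475 and 3.40 at 1 h in U0126.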

How the results depend on the processing

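limma called 0 genes between vehicle 6 h and 1 h in all 15 alternatives. The number at an unadjusted p under 0.05 was 342 as reported, 1018 with no filter (684 higher at 6 h), 627 with a replicate block, 520 with quantile normalization, 385 with cyclic loess, 299 with the 8 unstimulated libraries, 219 with the 4 vehicle libraries, and between 297 and 828 without 1 library. Same-numbered libraries deviated together by r of 0.146 in vehicle and 0.0574 in U0126; over 105 pairs of groups r ran from -0.04 to 0.50 and 95 were above 0.1. Not every pair was above 0.1, which was required to take the numbers as pairs, so they were not. A replicate block on the 8 unstimulated libraries, added after seeing the data, gave 517.

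Of 39 lists and families 6 had a median density that moved by more than the spread between libraries. Over the mean of all windows in place of the highest, the median was 0.711 for delayed genes, 0.776 for pan-neuronal, 0.451 for excitatory and 0.631 for clock genes. Without 1 library the median ran from 0.847 to 0.941 for delayed genes, from 0.236 to 0.290 for the oligodendrocyte list, from 0.636 to 0.758 for clock genes and from 0.268 to 0.329 for glutamate receptors. The rapid genes' resting share was 57.2% against 10 min, and from 32.7% to 61.1% without 1 library.

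The log2 fold change in vehicle changed sign without 1 library at 13 of 45 genes. The lowest and highest values were -1.17 and 0.031 at Egr2, -0.0044 and 0.80 at Klf4, -1.001 and 0.20 at Bdnf, -0.91 and 0.041 at Reln, -0.69 and 0.028 at Sox2, -0.087 and 1.11 at Sox10, -0.63 and 0.23 at Olig1, -0.57 and 0.30 at Olig2 (0.054 with no filter), -0.15 and 0.37 at Pdgfrb, -1.16 and 0.24 at Mcm5, -0.82 and 0.27 at Hspa1b, -0.14 and 1.14 at Aff4, and -0.86 and 0.089 at Cdk9. The cause was not tested. Read depth is unknown, and 2 libraries per time limit what can be called.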

Other observations

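Averaged over the vehicle and U0126 arms, the genes of lowest p on the higher side of 6 h over 1 h included Syt4, a vesicle protein, with a log2 fold change of 0.70 in vehicle and 0.49 in U0126, Tcf4, a basic helix-loop-helix factor (0.43 and 0.56), and Acad9, an assembly factor of respiratory complex I (0.74 and 0.50). On the lower side were Wwtr1, a factor of Hippo signalling also called Taz (-0.58 and -0.94), S100a11, a calcium-binding protein (-0.83 and -0.88), and Ptpru, a receptor phosphatase (-0.53 and -0.97). limma called none of them, with adjusted p at 0.9999.

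Small nucleolar RNA genes were lower at 6 h more often than higher in vehicle, with 38 lower and 7 higher of 45 tested and a median log2 fold change of -0.20, beside 6163 lower and 5934 higher of 12097 tested genes with a median of -0.01. Of these 45, 3 had an unadjusted p under 0.05 and limma called 0. In U0126 the median was -0.01, and 30.1% of the windows of these genes overlap another gene, against 13.0% over all genes. MicroRNA genes had 96 lower and 57 higher of 153 tested (median -0.10). Their median in U0126 was -0.05, and 25.3% of their windows overlap another gene. Centring on all genes in place of the tested ones would raise each of these vehicle values, as given above for every gene. The median density of all 24194 genes was 0.311 and 0.285 at 6 h, against 0.375 and 0.361 at 1 h, and its part in these values was not tested.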
